A study of Drosophila melanogaster with 82 samples.

Results

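The transcripts described here are 150, of 16637 on the array, chosen for being lower on restricted than on rich food in all of 7 tissues of the fly Drosophila melanogaster. For each transcript the difference between restricted food (DR) and rich food (AL) was taken in each tissue on the log2 scale, the largest (least negative) of the 7 differences was kept, and the 150 transcripts with the lowest value of it were taken. A transcript had to be clearly lower on DR food everywhere to enter the list, so the direction of its change is what chose it and is no result. These transcripts are called members below.

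Messages bound to ribosomes were measured in fat body, germ line, gut, heart, muscle, neuron and Malpighian tubule with 82 arrays, 1 array per pool of female flies. All flies carried UAS-RpL13A-His6FLAG, a tagged ribosomal protein that a GAL4 driver switches on, and the tag was used to pull the ribosomes down from homogenised whole flies. Pools held about 100 flies, or 200 for neuron, aged 13 days after 10 days on food with 0.5% (DR) or 5% (AL) yeast extract. There were 6 pools of each tissue on each food, but only 5 of heart AL and of neuron AL.

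The drivers were S106-GS-GAL4 in fat body flies, NGT-GAL4 in germ line flies, MYOIA-GAL4 in gut flies, HAND4.2-GAL4 in heart flies, MHC-GAL4 in muscle flies, C155-GAL4 in neuron flies and C42-GAL4 in tubule flies. DR and AL flies of a tissue had the same genotype. A tissue here means the cells in which its driver is active, and flies with the tag but no driver were not analysed here. Each pool is a separate collection of flies, so errors below rest on differences between pools.

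Yeast is the main source of amino acids in laboratory fly food. Lowering it is the usual form of dietary restriction in flies, known for longer life and for lower egg production. GAL4 is a yeast transcription factor that turns on a gene placed behind its UAS sequence, so a tagged ribosomal protein can be made in chosen cells and the messages on their ribosomes recovered. The fat body is the insect's store of fat and glycogen and acts in part as its liver, and the Malpighian tubule forms the urine.

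None of the 150 members could be given a gene name: the gene table used here pairs 16 transcripts with 1 gene and 28 with several, and no member is among them. Members are therefore given by their FlyBase transcript identifiers, with no role, and tissue marker genes and pathway lists were not analysed here. Levels are log2 intensities averaged over the 8 probes of a transcript, as deposited unless another scale is named. Each change is a difference in level, DR minus AL, with its standard error (SE) from 1 limma model of all 82 arrays. That SE uses a spread pooled over all 14 groups of tissue and food, so it is not the spread within the tissue it stands beside. The deposited values share 1 distribution within a tissue, so a change is relative to the other transcripts of that tissue, and fewer cells of a type cannot be told apart from less message per cell.

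The members spanned a wide range of sizes. The largest of the 7 changes was -3.70 and -3.66 for the 2 first members, -1.73 for the third and -1.58 for the fourth. It was -0.73 for the last 2 members, and also -0.73 for the next 2 transcripts, just outside the list. At least 2-fold lower in all 7 tissues were 53 members. In all, 2550 transcripts (15.3%) were lower on DR food in all 7 tissues, so the members are the extreme end of a larger group.

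The typical member changed by different amounts in different tissues. The members' median change was -2.56 in neuron (5.89-fold lower), -1.83 in tubule, -1.61 in muscle, -1.31 in fat body, -1.26 in gut, -1.10 in germ line and -1.09 in heart. The same median over all 16637 transcripts lay between -0.11 in neuron and 0.07 in muscle. Neuron was the tissue of the largest difference for 108 of the 150 members, followed by gut with 14 and heart with 9. Over all 16637 transcripts the lowest change lay in neuron for 5629, in gut for 1345 and in heart for 2064. The smallest difference lay in heart for 48 members, in germ line for 39 and in gut for 29. Over all transcripts the highest change lay in heart for 2436, in germ line for 2356 and in gut for 1706. Within 1 member the 7 changes spanned a median of 1.84 log2 units, and at most 3.91.

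The counts that follow use the contrast that chose the members, so nothing is read from them. With limma and an adjusted p below 0.05, 148 members were called lower in fat body (17.3% of all transcripts were), 149 in germ line (36.8%), 147 in gut (17.8%), 149 in heart (27.1%), and all 150 in muscle (27.3%), neuron (37.6%) and tubule (19.4%). In all 7 tissues at once 146 members were called lower, against 3.43% of all transcripts. Every DR pool lay below every AL pool for 101 members in fat body (11.1% of all transcripts), 43 in germ line (8.11%), 76 in gut (9.83%), 149 in heart (26.9%), 146 in muscle (18.2%), 145 in neuron (28.0%) and 146 in tubule (15.2%). The DR and AL pools were free of overlap in all 7 tissues for 29 members, against 0.385% of all transcripts.

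**Figure D1:**
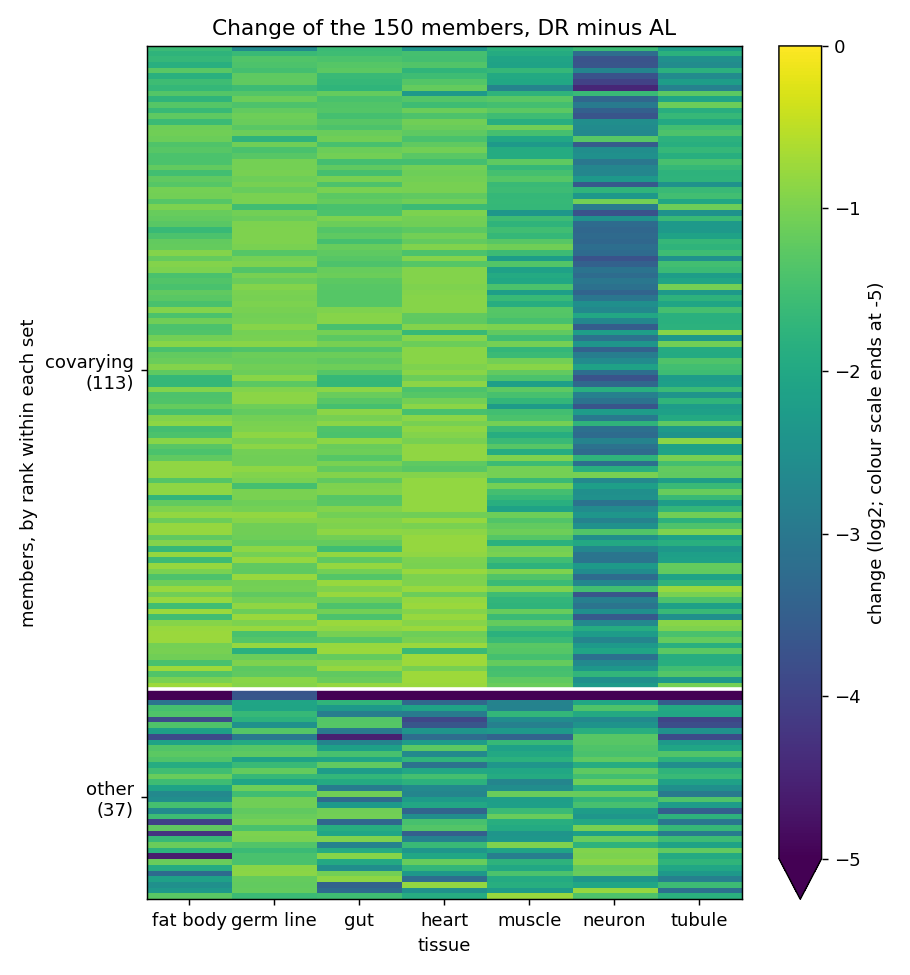
Change of each of the 150 members (rows) in each of 7 tissues (columns), DR minus AL on the log2 scale, as colour that ends at -5, with the 113 covarying members above the 37 others (see the text on covariation) and each set ordered by rank. The neuron column is darkest for most of the covarying members, with a median of -2.75, and the first 2 of the other members are dark in every tissue.

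FBtr0089324 and FBtr0089326 held the first 2 ranks, had the 2 most negative changes of the members in every tissue, and were also the 2 members with the widest range over the tissues. In fat body FBtr0089324 had a lowest, median and highest level of 6.75, 7.42 and 7.84 in the 6 DR pools, against 14.43, 14.67 and 14.84 in the 6 AL pools. In gut the values were 5.77, 6.03 and 6.19 in DR pools, against 13.43, 13.56 and 13.62 in AL pools. Both tissues showed narrow groups more than 6 log2 units apart.

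In germ line the DR pools of FBtr0089324 were brighter and more scattered, with a lowest, median and highest level of 9.55, 10.39 and 11.83, against 13.79, 14.32 and 14.58 in AL pools. DR pools 1 and 2 were high there, at 11.83 and 11.63, and DR pools 4 and 5 low, at 9.66 and 9.55. The highest DR pool was still below the lowest AL pool.

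In heart the DR pools of FBtr0089324 had a lowest, median and highest level of 6.82, 7.43 and 9.41, and the 5 AL pools had 13.50, 13.82, 13.05, 13.08 and 12.83. DR pools 4 and 5, at 8.62 and 9.41, stood above the rest of their group. In muscle the values were 7.90, 8.37 and 8.94 in DR pools, against 13.85, 14.24 and 14.74 in AL pools. In neuron they were 7.39, 7.70 and 8.61 in DR pools, while the 5 AL pools had 13.73, 13.68, 13.88, 13.28 and 12.98.

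In tubule FBtr0089324 had 5.60, 6.61 and 7.47 in DR pools, against 12.56, 13.23 and 13.79 in AL pools. No tissue had overlapping groups. The AL means of the 7 tissues lay between 13.23 in tubule and 14.64 in fat body, a far narrower range than the DR means, from 5.98 in gut to 10.57 in germ line.

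The changes of FBtr0089324 were -7.57 in gut, -7.33 in fat body, -6.64 in tubule, -5.84 in muscle and -3.70 in germ line (SE 0.30 each), and -5.59 in neuron and -5.45 in heart (SE 0.32 each). In gut and tubule every DR pool was below the 95th percentile of the random-sequence control probes, so the change is only a bound there. Taken against that background, FBtr0089324 was at least 80.5-fold lower in gut and at least 49.4-fold lower in tubule. In fat body 3 of the 6 DR pools of either transcript of the pair were below it. In neuron 1 DR pool of FBtr0089324 and 3 of FBtr0089326 were below it, and in heart 1 DR pool of either.

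FBtr0089326 had nearly the same profile. Its changes were -7.57 in fat body, -7.36 in gut, -6.74 in tubule, -5.63 in muscle and -3.66 in germ line (SE 0.27 each), and -5.34 in neuron and -5.19 in heart (SE 0.28 each). Its DR pools too were all below the control probes' 95th percentile in gut, where it was at least 64.4-fold lower, and in tubule, where it was at least 40.3-fold lower. Its DR means lay between 5.86 in gut and 10.24 in germ line, and its AL means between 12.93 in tubule and 14.55 in fat body. All 8 probes of either transcript were lower on DR food in all 7 tissues. Over the 82 arrays the levels of the 2 transcripts correlated with r = 0.998, and over the deviations of the pools from their group means with r = 0.94. The array gives the position of each probe along its transcript. Only 2 of the 8 probes of the pair lay at 1 common offset, so the probe sets differed in position, while the transcripts may still share sequence.

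**Figure D2:**
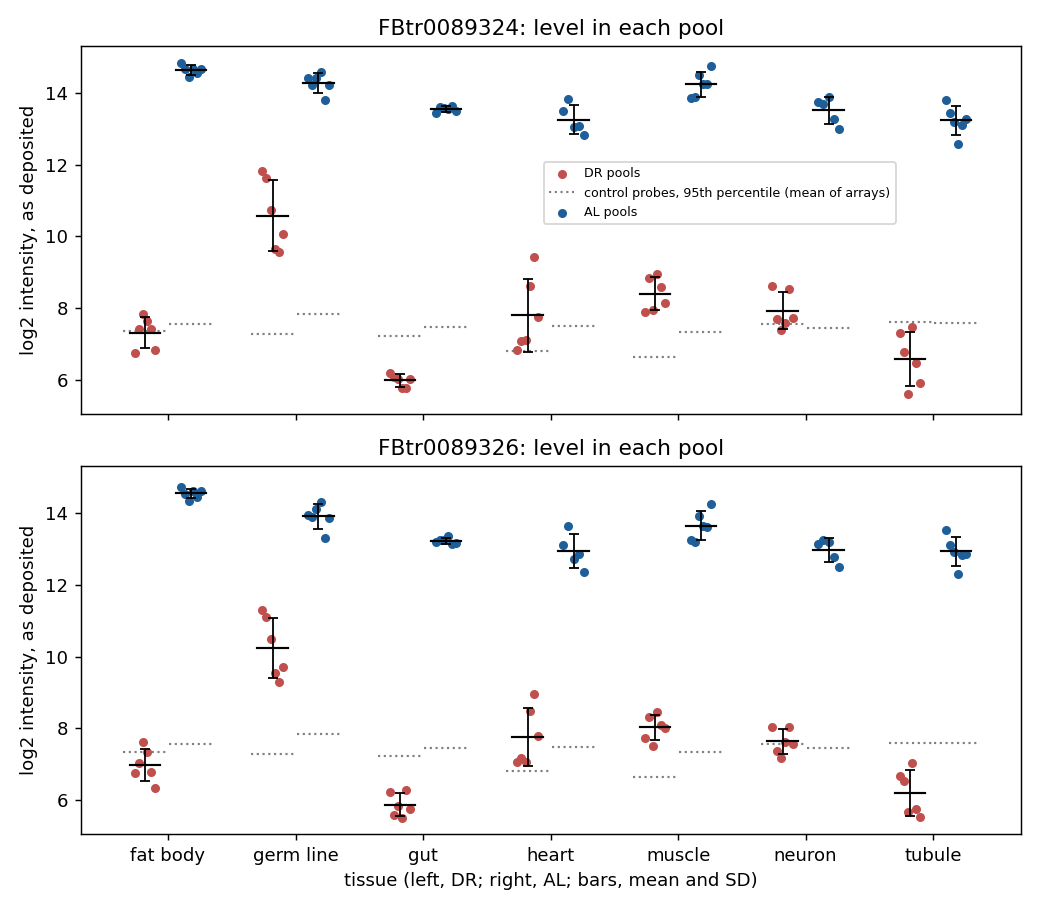
Level of FBtr0089324 (top) and FBtr0089326 (bottom) in each pool, as log2 intensity, by tissue, with DR pools to the left of AL pools, bars for the mean and SD of the pools, and dotted lines for the mean 95th percentile of the control probes. In no tissue do the DR and AL pools overlap, and the germ line DR pools, with a mean of 10.57 and 10.24, are the brightest of the DR groups. In the neuron DR pools that percentile ran from 6.75 to 9.26, which the line of its mean does not show.

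The members fell into 2 sets by how they varied between pools of the same group, a measure that the food difference does not enter. For each pool the deviation from its group's mean was taken, and members were grouped by the correlation of these deviations over the 82 arrays (average linkage, cut into 2 groups after the values were seen). The larger set, called covarying members here, has 113 transcripts with a median pairwise r of 0.82 (5th to 95th percentile 0.62 to 0.92). The 37 other members had a median pairwise r of 0.19 (-0.13 to 0.61), and pairs across the sets -0.22. Over all pairs of the 16637 transcripts the median was -0.01 (-0.50 to 0.56). The sets were cut on these same correlations, so the values within and across the sets are largely fixed by the cut. Over all pairs of the 150 members, without the cut, the median was 0.69 (-0.42 to 0.91). All pairs share the same arrays and the same scaling within a tissue, so these correlations are a description.

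**Figure D3:**
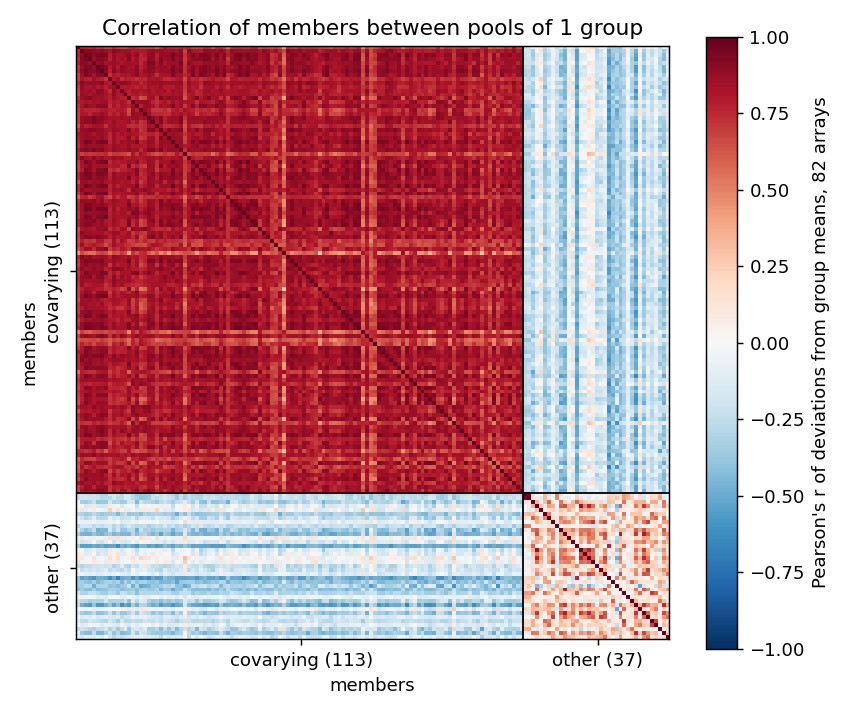
Pearson's r between each pair of the 150 members, computed over the deviations of 82 arrays from their group means, with the 113 covarying members first and the 37 others after them. The covarying members form 1 block with a median r of 0.82, and pairs across the sets have a median r of -0.22. The sets were cut on these same correlations.

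The sets also differed in their changes, and the first ranks held mostly the smaller set: 14 of the first 20 members were in the set of 37 and 6 in the set of 113. Of the covarying members, 108 had their largest difference in neuron, and of the other members none did. The covarying members' median change was -2.75 in neuron, -1.77 in tubule, -1.54 in muscle, -1.21 in fat body, -1.19 in gut, -1.07 in germ line and -0.999 in heart. The other members' median change was -2.38 in heart, -2.13 in tubule, -2.11 in muscle, -2.04 in gut, -1.92 in fat body, -1.45 in neuron and -1.43 in germ line. The sets were made after the values were seen and all these changes helped to choose the members, so the difference was not tested.

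Pools of 1 group could lie far apart in the covarying members. In gut the median level over the covarying members was 9.49, 9.59 and 9.70 in DR pools 3, 4 and 5, and 7.87, 8.01 and 8.47 in DR pools 1, 2 and 6, while the AL pools lay between 9.67 and 10.44. The gut DR pools thus formed a high and a low group, and the high group reached the lowest AL pool.

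In tubule the DR pools lay between 7.79 and 8.29, while AL pool 4 stood apart at 11.25 from the other AL pools at 9.35 to 9.81. In fat body DR pool 6 stood at 9.20, the other DR pools at 8.01 to 8.43 and the AL pools at 9.39 to 10.01. Both pools, high in the covarying members, were the lowest of their groups in the other set. Over the 37 other members fat body DR pool 6 was at 8.77 and the other fat body DR pools at 9.47 to 10.04. Tubule AL pool 4 was at 9.84 over the same members and the other tubule AL pools at 10.34 to 10.71.

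In germ line the DR pools numbered 5 and 6 were at 10.93 and 11.26 in the covarying members, the other DR pools at 9.75 to 10.22 and the AL pools at 11.06 to 11.71, so the groups overlapped. In neuron the DR pools numbered 4 and 6 were at 9.99 and 9.67, the other DR pools at 8.54 to 8.86, and the AL pools at 11.80, 11.83, 11.92, 11.71 and 12.10. The control probes' 95th percentile ran from 6.75 to 9.26 over the neuron DR pools. In neuron DR pool 5, at 8.86, the median was below that pool's own percentile, so its level there is not a measured size. In muscle and heart the pools lay closer together, at 8.44 to 9.21 in muscle DR against 10.17 to 10.67 in muscle AL, and at 8.29 to 8.83 in heart DR against 9.51 to 9.92 in heart AL.

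With each tubule pool left out in turn, the covarying members' median change in tubule stayed between -1.87 and -1.45. With each fat body pool left out it was between -1.39 and -1.13 in fat body, and with each gut pool left out between -1.38 and -0.97 in gut. In gut the other members' median stayed between -2.11 and -1.95. As values beside these, 480 transcripts, none a member, had a mean level in germ line at least 2-fold above that in each of the other 6 tissues on a scale shared by all arrays, a list made from these arrays. Their median level was 6.91 in tubule AL pool 4, against 6.66 to 6.79 in the other tubule AL pools, and 7.31 in fat body DR pool 6, against 6.83 to 7.16 in the other fat body DR pools. In neuron it averaged 8.33 ± 0.37 in DR pools (SD, n = 6) and 8.71 ± 0.07 in AL pools (SD, n = 5). Neuron DR pools 4 and 6, high in the covarying members too, were at 8.78 and 8.73, and the other neuron DR pools at 7.87 to 8.38. Of the latter, pool 5 was below its own control probes' 95th percentile. In tubule the median level averaged 6.66 ± 0.07 in DR pools and 6.77 ± 0.09 in AL pools (SD, n = 6 each). In the other 5 tissues its mean was higher in DR pools than in AL pools. The control probes' 95th percentile lay at 7.30 to 7.75 in tubule AL pools and at 7.35 to 7.79 in tubule DR pools. All tubule medians of the 480 were thus at background. In fat body DR pools that percentile lay at 6.93 to 7.73, so those medians were near background. The fat body AL medians, 6.66 to 6.84, were all below the percentile's range there, 7.15 to 7.84. The gut medians (6.93 to 7.57 in DR pools, 7.03 to 7.41 in AL pools) lay within its range (6.81 to 7.98 and 6.99 to 7.77). Shifts of these tubule, fat body and gut medians are not measured sizes, and little can be read from them. The part of these differences in the members' values was not tested.

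**Figure D4:**
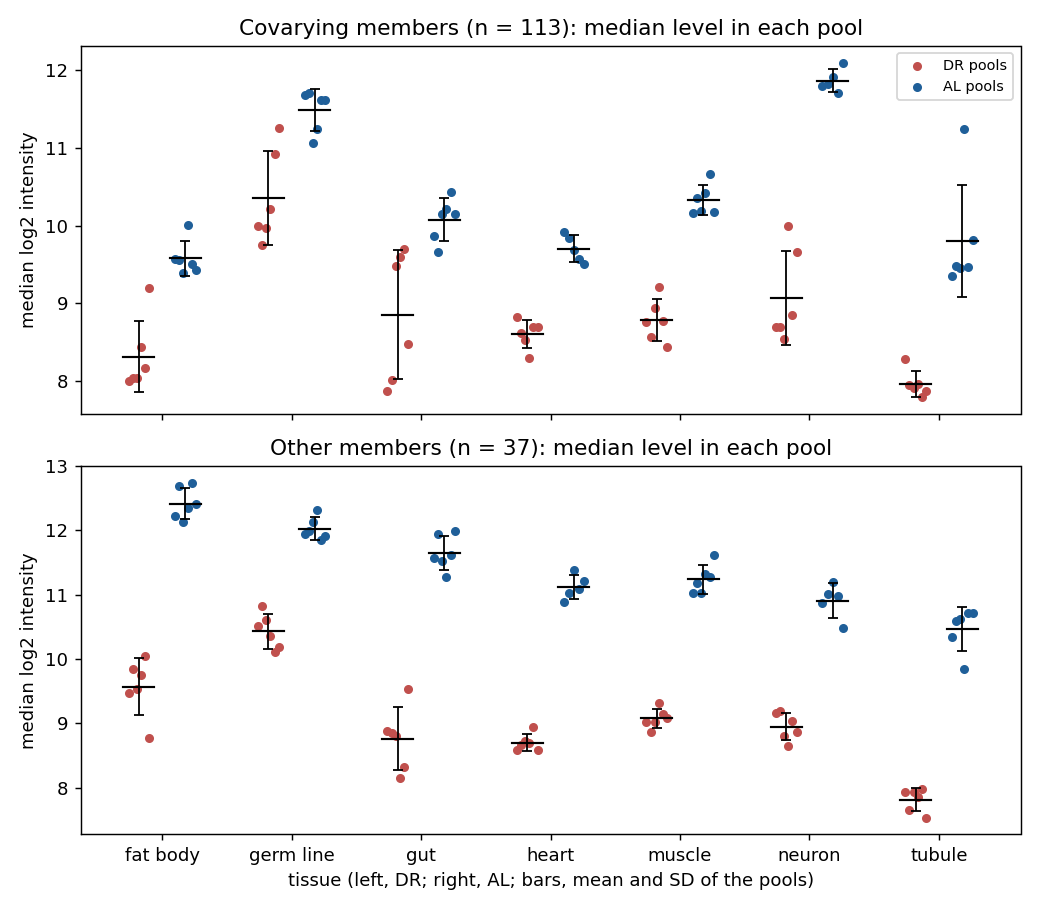
Median level of the 113 covarying members (top) and the 37 other members (bottom) in each pool, as log2 intensity, with DR pools to the left of AL pools in each tissue and bars for the mean and SD of the pools. Single pools stand apart among the covarying members, such as tubule AL pool 4 at 11.25 and the gut DR pools at 9.49 to 9.70.

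Members with large changes in single tissues differed in their profiles. These members were picked after their values were seen, as the third by rank and those next after the first pair in the size of a tissue's change. FBtr0273369, the third by rank, was bright in gut on either food, with a lowest, median and highest level of 13.31, 13.40 and 13.60 in DR pools, against 15.14, 15.17 and 15.24 in AL pools. Its gut change of -1.73 (SE 0.18) was its smallest, and its tubule change of -3.53 its largest. No DR pool overlapped an AL pool in any tissue.

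Among the members FBtr0078025 came next after the first pair in germ line, gut and muscle, with changes of -2.98, -4.56 and -3.40 (SE 0.39 each), and a change of only -1.29 (SE 0.41) in neuron. In gut 5 of its 6 DR pools were below the control probes' 95th percentile, so the size of that change and its place rest largely on values at background. In fat body its DR pools spread from 8.35 to 12.39 with a median of 9.26, and pool 2 was the high one, against 13.27 to 13.76 with a median of 13.52 in AL pools. In muscle its DR pools spread from 8.84 to 9.82 with a median of 9.12, against 11.03 to 13.80 with a median of 12.80 in AL pools. Its scatter thus lay on the DR side in fat body and on the AL side in muscle.

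FBtr0088748 and FBtr0087754 shared a pattern of large differences in heart and tubule and small ones in gut. The changes of FBtr0088748 were -3.94 in heart (SE 0.24) and -3.95 in tubule (SE 0.23), and -1.34 in gut (SE 0.23). In tubule all its DR pools were below the control probes' 95th percentile, which makes it at least 11.1-fold lower there. FBtr0087754 changed by -3.65 in heart, -3.82 in tubule, where 5 of its 6 DR pools were below that percentile, and -1.33 in gut. They differed in fat body, where FBtr0088748 had 9.98, 10.80 and 12.36 (lowest, median and highest) in DR pools, against 14.48, 14.68 and 14.88 in AL pools. FBtr0087754 had 12.72, 13.75 and 13.97 in fat body DR pools, against 14.91, 14.99 and 15.10 in AL pools. The DR and AL pools of either transcript did not overlap.

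FBtr0076914 and FBtr0085626 had their largest changes in fat body, at -4.61 and -4.22. FBtr0076914 had 5.95, 7.02 and 8.55 in fat body DR pools, against 10.07, 12.04 and 12.23 in AL pools, with AL pool 3 the low one, and 4 of its 6 DR pools there were below the control probes' 95th percentile. In neuron the same transcript had 6.56, 7.11 and 7.76 in DR pools, all below the control probes' 95th percentile, and 8.17, 7.45, 8.28, 8.51 and 7.88 in AL pools. Its groups were apart in fat body and overlapped in neuron.

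FBtr0076729 had the largest germ line change after the first pair and FBtr0078025, -2.62 (SE 0.25), with 9.50, 10.11 and 10.88 in DR pools, against 12.47, 12.77 and 12.92 in AL pools. The groups did not overlap. FBtr0073715 had its largest difference in gut, -3.42, with 7.35, 7.51 and 8.02 in DR pools, against 10.81, 10.95 and 11.23 in AL pools. Its heart change was only -0.81, with DR pools at 8.86 to 9.49 and AL pools at 9.96, 10.65, 9.55, 9.99 and 9.43, so that the groups met.

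The largest neuron changes after those of the first pair were in the covarying set. FBtr0081664 had 5.70, 6.95 and 9.41 in neuron DR pools, and 11.54, 11.78, 11.63, 11.71 and 12.21 in neuron AL pools, a change of -4.46 (SE 0.44). DR pools 4 and 6 were its high ones, at 9.41 and 8.35. FBtr0072133 had 6.65, 6.77 and 8.60 in neuron DR pools, with the same 2 pools high, and 11.08, 11.20, 11.34, 11.07 and 11.52 in AL pools, a change of -4.02. In both the highest DR pool was below the lowest AL pool, and 4 of the 6 DR pools were below the control probes' 95th percentile.

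The members with the narrowest range over the tissues were FBtr0089015 and FBtr0076663. FBtr0089015 changed by -0.82 in fat body (SE 0.14) and by -1.23 in tubule, a range of 0.405, with the other 5 tissues between -0.92 and -1.04. Its muscle levels were 8.96, 9.10 and 9.26 in DR pools, against 9.90, 10.15 and 10.37 in AL pools. No DR pool of FBtr0089015 overlapped an AL pool in any tissue, though its largest fold difference was only 2.34, in tubule. FBtr0076663 changed by between -1.37 in neuron and -0.79 in fat body, and in neuron had 9.14, 10.09 and 10.27 in DR pools, and 11.41, 11.36, 11.32, 11.19 and 11.36 in AL pools. Its lowest neuron DR pool, pool 5, was below that pool's control probes' 95th percentile. A small difference was thus free of overlap in every tissue for FBtr0089015.

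Some members may not be separate measurements. Counting identifiers that differ by at most 2 as neighbours, 23 members formed 9 runs and 127 stood alone, giving 136 units. Adjacent identifiers often belong to transcripts of 1 gene, which was not checked here. The longest run, FBtr0081664 to FBtr0081668, has 5 members, whose levels correlated over the 82 arrays with r from 0.98 to 1.00. Any pair of them had 5 to 7 of 8 probes at 1 common offset, which would put most of their probes on the same stretch of message. Their neuron changes were -4.46 for FBtr0081664 and from -3.74 to -3.38 for the other 4, and their heart changes were from -1.18 to -0.86. On the earlier-lying probes alone the largest of the 7 changes of FBtr0081665 to FBtr0081668 was only -0.46 to -0.34 and no longer passed limma's test. Without heart DR pool 4 the heart changes of the 5 lay between -1.03 and -0.73 and no longer passed limma's test.

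The run FBtr0076571 to FBtr0076574 has 4 members of the other set, with levels that correlated with r from 0.89 to 0.97, and only 2 probes of any pair lay at 1 offset. All 4 had their smallest difference in germ line (-1.32 to -0.88). FBtr0076571, FBtr0076572 and FBtr0076573 had their largest in gut (-3.27 to -2.55). In FBtr0076574 every DR pool was below the control probes' 95th percentile in gut, fat body and tubule, so it was at least 4.75-fold lower in gut, beside 6.29-fold lower in heart, where 1 of 6 DR pools was below it. In gut FBtr0076572 had 9.73, 10.03 and 10.79 in DR pools, against 13.26, 13.46 and 13.75 in AL pools. Not all neighbours went together: FBtr0273367 and FBtr0273369 correlated with r = 0.33 and were in different sets. Runs were picked out after the values were seen.

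The 1200 probes of the members, 8 for each, were lower on DR food in 97.75% (germ line) to 99.75% (neuron) of cases. Over all probes of the array the share was 46.95% (muscle) to 55.13% (neuron). The rule ranked the mean of these same probes, so the members' shares were largely set by the choice and nothing is read from them. In all, 106 members had every probe lower on DR food in every tissue. The lowest share for any member was 89.3% of its pairs of probe and tissue. The last probe of a member lay a median of 1318 bases along the transcript, against 1024 bases over all transcripts, and 1368 bases in the covarying set against 1003 in the other set.

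Several members could not be measured on DR food in some tissues. All DR pools were below the 95th percentile of the control probes for 38 members in tubule, 8 in gut, 7 in fat body, 3 in neuron, 1 in heart and none in germ line or muscle. Of all 16637 transcripts this held for 4928 in tubule, 3205 in gut, 4626 in fat body and 1616 in neuron. It also held for 564 in heart, 89 in germ line and 109 in muscle, so a DR level at background was not particular to members. In all, 40 members were below it in at least 1 tissue and none in all 7. In tubule 34 of the 38 had a bound above 1, with a median of at least 1.99-fold lower and a highest of at least 49.4-fold lower. A bound above 1 was found for only 3 of the 7 in fat body and 6 of the 8 in gut, for all 3 in neuron and for the 1 in heart. The fitted change of a member at background on DR food is not a measured size.

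Levels were also compared between tissues. A transcript at background on AL food in a tissue can hardly be measured as lower there on DR food. The choice of members thus favoured transcripts with a measurable AL level in every tissue, with few exceptions. All AL pools were below the control probes' 95th percentile for 2 members in fat body, 1 in heart and none in tubule. Of the 16637 transcripts, this held for 5572 in fat body, 2394 in heart and 5007 in tubule. The shares that follow are therefore a description, set in part by the choice. For them the arrays were quantile normalised over all 82, which gives every tissue the same distribution of levels by construction, and the mean over both foods was compared with the mean of the other 6 tissues. With limma, at least 2-fold and an adjusted p below 0.05, 38 members (25.3%) were higher in germ line, where 16.8% of all transcripts were. In gut 16 members were higher (10.7%, against 8.70% of all), in fat body 15 (10.0%, against 10.9%), in neuron 9 (6.0%, against 7.96%) and in tubule 3 (2.0%, against 10.9%). In heart and muscle it was 1 member each (0.667%), against 4.14% and 11.5% of all transcripts. In all 62 members passed in at least 1 tissue and 88 in none.

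These counts depended on the food and the scaling, and so did those of all transcripts. With the DR pools alone 5 members passed in neuron (11.9% of all transcripts did), 2 in heart (4.88%) and 2 in muscle (14.8%). With the AL pools alone 84 passed in neuron (7.28% of all transcripts), 4 in heart (5.69%) and 4 in muscle (8.78%). A level on 1 food holds part of the difference that chose the members, so nothing is read from these. On the deposited scaling, which differs between tissues, 111 members passed in germ line (46.1% of all transcripts), 59 in neuron (19.9%) and 1 in tubule (9.54%). On the shared scale the members' median level in neuron was 8.63 on DR food and 11.24 on AL food. In germ line it was 9.57 on DR food and 11.11 on AL food. In fat body it was 9.16 on DR food and 10.33 on AL food, and in tubule 8.44 on DR food and 10.08 on AL food. Among the 7 tissues these medians were highest in neuron and germ line on AL food, and in germ line on DR food. They too hold part of the difference that chose the members, so nothing is read from them.

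By the mean over both foods, 68 members (45.3%) were highest in germ line, against 27.4% of all transcripts, 33 (22.0%) in neuron, against 13.96%, and 23 (15.3%) in gut, against 10.9%. The sets differed in this as well, as a description. Of the covarying members 62 (54.9%) were highest in germ line, 31 (27.4%) in neuron and 12 (10.6%) in gut. Of the other members 11 (29.7%) were highest in gut, 7 (18.9%) in fat body, 6 (16.2%) in germ line and 5 (13.5%) in muscle. With the test, 29 covarying members (25.7%) were higher in germ line, 5 (4.4%) in gut and 1 (0.885%) in fat body. Of the other members 14 (37.8%) were higher in fat body, 11 (29.7%) in gut and 9 (24.3%) in germ line. By the test the sets thus had nearly the same share in germ line and differed in fat body and gut.

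**Figure D5:**
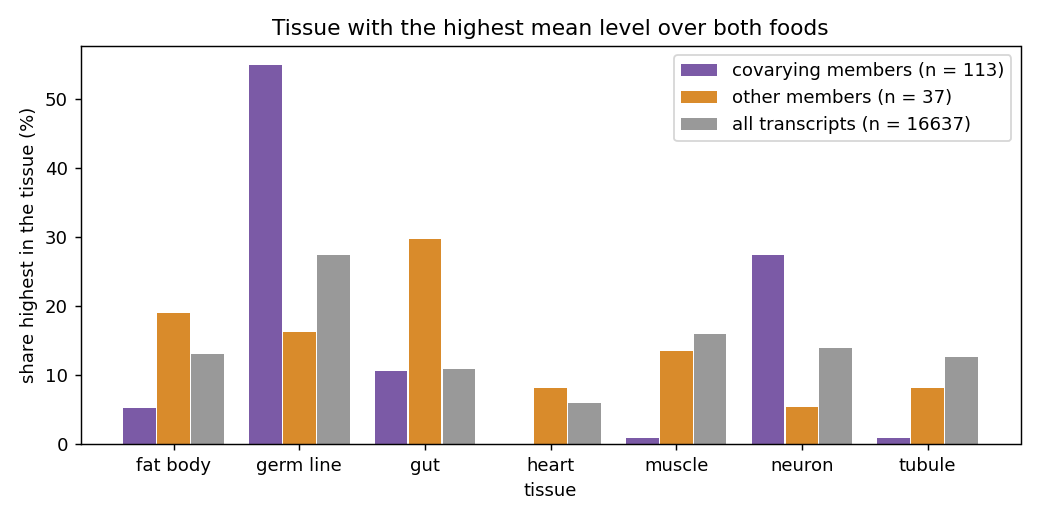
Share of transcripts (%) whose mean level over both foods, on the scale shared by all arrays, was highest in each tissue, for the 113 covarying members, the 37 other members and all 16637 transcripts. Germ line and neuron hold 62 and 31 of the covarying members, and gut holds 11 of the 37 others.

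Single members were then compared between tissues on the shared scale. Each p-value below is for the difference from the mean of the other 6 tissues, so it does not test the highest tissue against the next. FBtr0087754, of the other set, was highest in gut, with 13.89 ± 0.13 on DR food and 15.14 ± 0.04 on AL food (SD, n = 6 each, shared scale). Its gut level was 3.97 above the mean of the other 6 tissues (SE 0.11, adjusted p = 3.75e-45, limma). Fat body came next, with 13.53 ± 0.40 on DR food and 14.80 ± 0.07 on AL food, and the lowest was tubule, with 7.64 ± 0.32 on DR food and 10.88 ± 0.48 on AL food. The small gap between gut and fat body was within the spread of the DR pools and beyond that of the AL pools. FBtr0088748 (3.74 above the mean of the other 6 tissues, SE 0.12), FBtr0085626 (3.16, SE 0.12), FBtr0076914 (2.84, SE 0.14) and FBtr0273369 (2.71, SE 0.10) were also highest in gut. The adjusted p of these differences were 8.9e-41, 3.97e-37, 2.84e-30 and 6.1e-38 by limma.

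FBtr0089324, first by rank, was highest in germ line, at 12.09 over both foods, with fat body next at 11.32. Germ line was 1.44 above the mean of the other 6 tissues (SE 0.18, adjusted p = 7.53e-11, limma). The transcript's level in germ line was 9.75 ± 1.35 on DR food and 14.43 ± 0.31 on AL food (SD, n = 6 each, shared scale). On AL food alone its fat body level, 14.41 ± 0.13, did not differ from that beyond the spread of the pools, and its lead in germ line lay on DR food, where fat body had 8.23 ± 0.43. In the covarying set FBtr0081665 was highest in germ line, 1.89 above the mean of the other 6 tissues (SE 0.18, adjusted p = 6.79e-16, limma). Its germ line level was 11.14 ± 1.15 on DR food and 12.56 ± 0.41 on AL food. Neuron came next, with 8.90 ± 0.86 on DR food and 12.14 ± 0.20 on AL food, so the ranges of mean ± SD of the 2 tissues overlapped on AL food and not on DR food. FBtr0073715 was highest in tubule, 1.75 above the mean of the other 6 tissues (SE 0.12, adjusted p = 1.94e-21, limma). Germ line came next, at 11.55 against 11.65 in tubule, a gap smaller than the pool spread. FBtr0089015, of the narrow range, was highest in neuron, only 0.63 above the mean of the other 6 tissues (SE 0.08, adjusted p = 1.84e-10, limma). Its neuron level was 10.59, and its gut, germ line and fat body levels (10.23, 10.23 and 10.17) lay within the pool spread of each other.

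The list itself moved with the way levels were computed. Applied again after quantile normalisation over all 82 arrays the rule kept 120 of the 150 members, with the median of the probes 115, with the earlier-lying probes 108 and with the later-lying probes 101. Leaving out each pool in turn kept 135 to 150 members. With any 1 pool left out, the largest of the 7 changes was no higher than -3.49 for FBtr0089324 and -3.48 for FBtr0089326.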

How the data were processed

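Per the labels' protocols, the authors pulled down tagged ribosomes, made and amplified DNA copies of the bound RNA, randomised the order of amplification and of Cy3 labelling over groups, and used NimbleGen arrays of 1 colour. The deposited table gives linear intensities, 1 column per pool: 132998 probes of 16637 transcripts (8 probes for 16616 of them) and 4100 random-sequence control probes. Sorted log2 intensities of the deposited arrays differed by at most 0.0379 within a tissue and by up to 2.67 between tissues, so the deposited values were scaled to 1 distribution within each tissue. Scanner, extraction software, background correction and annotation release were not given in the sources used here. The number of arrays limits the precision.

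Log2 of the intensities was taken here and averaged over the probes of a transcript, with no filter on low levels. All 82 arrays entered 1 model of the 14 groups of tissue and food in limma (version 3.58.1, under R 4.3.3; tables were read by data.table, version 1.17.8) with 68 residual degrees of freedom, and p-values were adjusted by Benjamini and Hochberg over all 16637 transcripts. The test is two-sided. Levels between tissues were compared after quantile normalisation over the 82 arrays. Other steps used Python 3.11.15 with numpy 2.4.6, pandas 2.3.3, scipy 1.17.1 and matplotlib 3.10.9. The fit was tested on simulated data. A bound takes the mean of the AL pools against the higher of the control probes' 95th percentile and the transcript's own value in each DR pool.

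The members, the lists and the comparisons were chosen with earlier results of these data known. Transcripts were named by rule: the 2 first by rank, the 2 most negative in each tissue and the 2 with the widest and the narrowest range, which gave FBtr0089324, FBtr0089326, FBtr0089015 and FBtr0076663. All other identifiers were picked after their values were seen. Lists of pathway and marker genes were not analysed here, because identifiers were not paired with names. The labels number the pools, but nothing says that DR and AL pools of 1 number belong together.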

Additional observations from a re-analysis of the deposited data

Results flagged for a closer look

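In 28 of 238 groups examined (11.8%), 1 pool stood far from the rest of its group; chance gives this in about 1 of 20 groups. The groups are not independent, since the same pools recur for many members. Values are log2 levels, as deposited.

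Tubule AL pool 4 was involved most often. It was the highest of its group for the median of all members, at 11.10 (next 9.99), and for the covarying members, at 11.25 (next 9.81). The same pool was highest for FBtr0089015, at 11.25, FBtr0076663, at 10.49, FBtr0076729, at 10.95, FBtr0081664, at 11.11, and FBtr0072133, at 10.46. It was lowest of its group for FBtr0273369, at 10.98 (next 11.94), and for FBtr0085626, at 9.43 (next 10.24).

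Fat body DR pool 6 was highest for the covarying members, at 9.20, and for FBtr0076729, at 9.28, and lowest for FBtr0087754, at 12.72 (next 13.61). Fat body DR pool 1 was highest for FBtr0273369, at 12.26. Fat body AL pool 4 was highest for the median of all members, at 10.14, for the covarying members, at 10.01, and for FBtr0081664, at 9.52. Fat body AL pool 3 was lowest for FBtr0076914, at 10.07 (next 11.85), and FBtr0085626, at 11.69 (next 12.94), and highest for FBtr0073715, at 10.96.

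Tubule DR pool 1 was highest for the median of all members, at 8.23, and for the covarying members, at 8.29. Muscle DR pool 4 was highest for FBtr0076914, at 7.42, FBtr0078025, at 9.82, and FBtr0076729, at 9.68. Heart DR pool 4 was lowest for FBtr0081664, at 7.33, heart AL pool 3 highest for FBtr0076914, at 10.63, neuron DR pool 5 lowest for FBtr0076663, at 9.14, and gut AL pool 5 lowest for FBtr0078025, at 10.95. In that neuron DR pool FBtr0076663 was below the control probes' 95th percentile.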

How the results depend on the processing

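Alternatives were quantile normalisation over all 82 arrays, the median of the probes, the earlier-lying or later-lying probes alone, each tissue fitted alone, dim transcripts left out (15065 transcripts and all 150 members stayed), array weights (whose estimation stopped before convergence), and each pool left out. Leaving out pools for the 2 sets of members was added after seeing the data. For the members' counts and medians, 428 values kept their direction and stayed close to the reported one, and 16 moved further. Quantile normalisation over all arrays gave median changes of -1.49 in germ line and -1.84 in muscle. For members higher in a tissue than in the other tissues, the deposited scaling gave 111 in germ line, 59 in neuron and 1 in tubule, the AL pools alone 84 in neuron and 4 each in heart and muscle, and the DR pools alone 5 in neuron and 2 each in heart and muscle. The share of all transcripts moved too, to 46.1% in germ line, 19.9% in neuron and 9.54% in tubule on the deposited scaling. With the AL pools alone it was 7.28% in neuron, 5.69% in heart and 8.78% in muscle. With the DR pools alone it was 11.9%, 4.88% and 14.8% in the same order. Leaving out single pools gave 1 to 2 in heart (2 without heart DR pool 1) and 1 to 2 in muscle (2 without muscle AL pool 3 or DR pool 1, 2 or 6). The causes were not tested. For named members, 352 values stayed on their side of the threshold and 10 lost the call: FBtr0076663 on later-lying probes (-0.40), FBtr0081665 to FBtr0081668 on earlier-lying probes (-0.46 to -0.34), and FBtr0081664 to FBtr0081668 without heart DR pool 4 (-1.03 to -0.73).

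With a replicate block of the pool number within a tissue, 149 members were called lower in gut and neuron and 150 in the other 5 tissues, and no named member lost its call. DR and AL pools of 1 number share only the number: deviations of 21 of 40 such pairs correlated above 0.1 (r from -0.44 to 0.77), and 14 of 40 DR pools were closest to the AL pool of their own number. Control probes set the floor: 40 members were at background in every DR pool of at least 1 tissue.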

Other observations

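Outside the list, 741 of 16487 transcripts (4.49%) varied between pools with the mean of the covarying members at r of 0.8 or more, a group chosen on these arrays. Of these, 583 (78.7%) were lower on DR food in all 7 tissues without being among the 150 lowest, and 679 had their largest fall in neuron. Over all 16637 transcripts, 2550 (15.3%) were lower in all 7 tissues, and the lowest change lay in neuron for 5629. The median change of the 741 was -1.69 in neuron, -0.86 in muscle, -0.81 in tubule, -0.65 in germ line, -0.54 in gut, -0.43 in fat body and -0.42 in heart. By the mean over both foods, 408 of them were highest in germ line and 179 in neuron. In tubule AL pool 4 their median level was 12.28, against 10.81 to 11.08 in the other tubule AL pools, and the DR pools lay between 10.05 and 10.35.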
